A study of Mus musculus with 2 samples.

Results

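The transcripts of 6 Pax genes known from the developing brain, Pax2, Pax3, Pax5, Pax6, Pax7 and Pax8, were measured in the hindbrain of newborn mice. They were taken by name from the 43346 mouse genes of the deposited tables, with no cutoff on their values. The choice was made with earlier results of these data known. The series is a single group of 2 libraries, replicate 1 and replicate 2, of rRNA-depleted RNA longer than 200 nt from animals of postnatal day 0 (strain B6NTac;B6NCrl/Lap). Both libraries were pools of males and females. The labels give 15 mice for replicate 1 and no number for replicate 2, and although they call the tissue isolates independent, both carry the same donor identifier, so the spread between the libraries may be technical. With 2 libraries of 1 group an exact sign-flip test cannot go below p = 0.5, and values are therefore described with their spread and without tests.

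Replicate 1 held 54313140 expected counts and replicate 2 held 77142270. An expected count is the estimated number of sequenced fragments from a gene, and TPM (a transcript level with a fixed sum over each library) divides it by the length of the gene's transcripts, so that levels of different genes can be compared within a library. The share of TPM on protein-coding genes was 28.1% in replicate 1, against 19.3% in replicate 2. Among protein-coding genes averaging 200 counts or more, the median ratio of TPM, replicate 1 over replicate 2, was 1.44. Comparisons of a gene between the libraries were therefore made on scaled counts. Of 12 genes that mark the hindbrain, 10 reached 1 TPM in both libraries, against 2 of 10 forebrain genes (Lhx2 and Neurod6). Of all protein-coding genes 54.6% did so, and both sets of marker genes were chosen with earlier results of these data known. The summed TPM of the forebrain list was 18.17 in replicate 1 and 9.34 in replicate 2.

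Pax proteins are transcription factors that bind DNA through a paired domain, to which some members add a homeodomain. They fall into subfamilies of close relatives. Pax2, Pax5 and Pax8 share a truncated homeodomain and act at the boundary of midbrain and hindbrain and in inhibitory interneurons, Pax3 and Pax7 pattern the dorsal neural tube and serve neural crest and muscle progenitors, and Pax6 is a master regulator of eye development that is also made in cerebellar granule cells and their precursors.

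Pax6 had the highest level of the 6 genes in both libraries and Pax7 the lowest, with Pax8, Pax5, Pax3 and Pax2 in between by mean TPM. Pax6 averaged 25.4 ± 0.976 TPM and Pax7 0.715 ± 0.035 TPM (SD, n = 2). These SDs are of deposited TPM, which also carries the unequal coding share of the libraries. With TPM taken over protein-coding genes only, Pax6 had 88.2 in replicate 1 and 135.7 in replicate 2 (112 ± 33.6). Pax7 then had 2.64 and 3.58 (3.11 ± 0.67). At a minimum of 1 TPM in both libraries, 5 of the 6 genes were detected, Pax7 being the exception; the same was true of 54.6% of all 21461 protein-coding genes. A minimum of 0.5 TPM was reached by 6 of 6 against 59.8%, and one of 2 TPM by 3 of 6 against 47.5%. The median of the 6 mean levels was 2.81 TPM, and that of all protein-coding genes was 2.07 TPM. The TPM ranges of Pax6, Pax8 and Pax5 did not overlap. The ranges of Pax5 and Pax3 overlapped, although Pax5 was 1.31 times the level of Pax3 in each library. By deposited posterior means they lay farther apart, with Pax5 at 5.85 and 2.60 TPM and Pax3 at 3.3 and 1.53 TPM in replicates 1 and 2. Pax3 and Pax2 could not be ordered: Pax3 was 1.32 times as high as Pax2 in replicate 1 and 0.994 times as high in replicate 2. These are whole-tissue values, in which fewer cells of a type and less RNA per cell cannot be told apart.

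**Figure D1:**
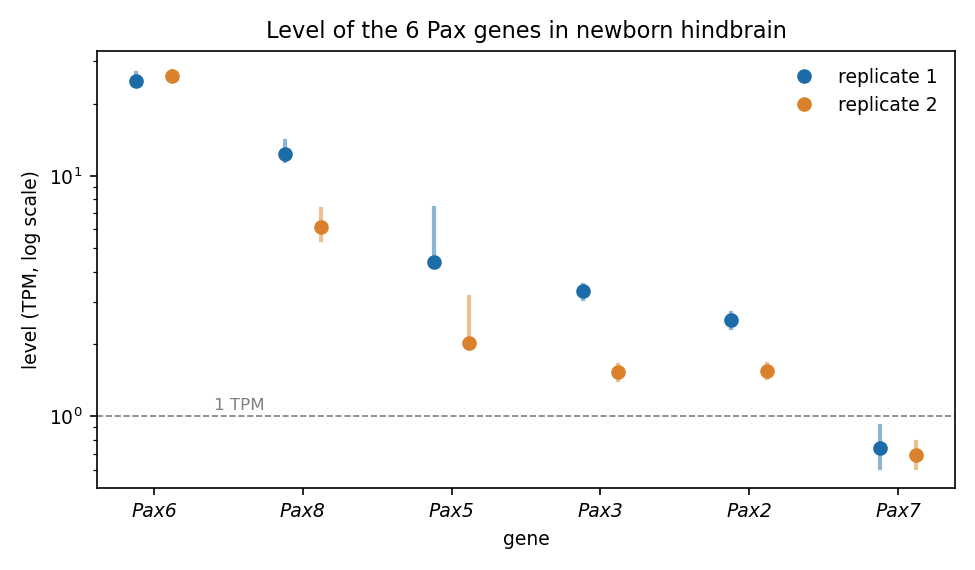
Level of each Pax gene in TPM on a log axis, with 1 point per library and the deposited interval as a vertical line; the dashed line marks 1 TPM. Pax6 lies highest, at 24.8 and 26.1 TPM, and Pax7 is the only 1 of the 6 genes below 1 TPM in both libraries.

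Pax6 (ENSMUSG00000027168.17, chromosome 2, 105668900 to 105697364 on the plus strand of mm10) carried most of the summed Pax TPM. It had 3575 counts in replicate 1 (95% exact Poisson interval 3459 to 3694) and 6710 in replicate 2 (6550 to 6873), which gave 24.75 and 26.13 TPM. Such intervals cover counting error only, because the reads carry no molecular identifiers. The intervals deposited with the TPM values, whose level is not stated, ran between 23.99 and 26.82 TPM in replicate 1 and between 25.37 and 27.44 TPM in replicate 2. Among protein-coding genes Pax6 ranked 1799 of 21461 by mean TPM. It accounted for 51.5% of the summed TPM of the 6 genes in replicate 1 and 68.7% in replicate 2.

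Pax6 is read from several start sites. The 300-base windows around the starts that RefSeq gives on GRCm38.p6 (250 bases before and 50 after) are shown because Pax6-206, Pax6-207 and Pax6-210 start at the first of them. Capitals mark the letters CCAAT.
Pax6 start 1, chr2:105668646-105668945 plus strand: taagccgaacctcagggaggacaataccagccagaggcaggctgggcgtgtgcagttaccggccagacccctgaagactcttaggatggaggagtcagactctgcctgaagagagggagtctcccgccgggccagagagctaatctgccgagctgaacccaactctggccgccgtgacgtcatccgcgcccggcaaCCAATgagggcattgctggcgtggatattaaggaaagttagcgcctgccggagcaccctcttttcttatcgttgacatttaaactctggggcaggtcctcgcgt
Pax6 start 2, chr2:105682213-105682512 plus strand: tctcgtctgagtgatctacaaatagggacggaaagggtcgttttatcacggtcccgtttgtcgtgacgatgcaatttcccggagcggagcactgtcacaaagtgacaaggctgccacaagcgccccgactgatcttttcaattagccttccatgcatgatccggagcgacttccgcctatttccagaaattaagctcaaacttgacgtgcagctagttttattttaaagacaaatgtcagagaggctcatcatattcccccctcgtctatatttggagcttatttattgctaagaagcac
Transcripts starting within 100 nt of the first site, Pax6-206, Pax6-207, Pax6-210 and Pax6-214, made up 66.7% of Pax6 TPM and 55.1% of its counts in replicate 1, against 58.4% and 49.5% in replicate 2. The 5 transcripts starting at the second site made up 2.04% and 1.96% of TPM. The remaining 31.3% and 39.6% of TPM belonged to transcripts with annotated starts elsewhere in the gene. The first window holds CCAAT at position -54 and no TATAAA, and the second holds neither on either strand. On both strands of all 32851 RefSeq windows of the same length, CCAAT or its reverse ATTGG occurred in 37.4% and TATAAA or its reverse TTTATA in 13.6%. A match of this kind only describes the letters of the window.

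The leading Pax6 transcript by TPM was Pax6-210, a short transcript annotated as processed, without a reading frame. It had 8.38 TPM in replicate 1 and 9.24 TPM in replicate 2, which was 33.9% and 35.4% of Pax6. Measured by counts, its share was only 12.8% and 15.6%, since it is 983 nt long. Compared with the coding transcript Pax6-207, which has 12 exons, Pax6-210 has 7 and leaves out 5 exons with 654 nt between 105679810 and 105685943, among them the exon with the annotated coding start at 105680298. Of the 26 annotated Pax6 transcripts, 10 were at 0 in both libraries. The share of protein-coding transcripts in Pax6 was 57.6% by TPM and 80.1% by counts in replicate 1, against 45.4% and 73.0% in replicate 2.

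Full-length Pax6 comes in versions with and without exon 5a, a short exon that lengthens the paired domain and changes which DNA sequences it binds. The exon is shown in capitals with the 15 bases of the spliced transcript Pax6-206 on each side, which belong to the neighbouring exons, because it is what tells the main Pax6 forms apart.
Pax6 exon 5a (capitals at chr2:105684751-105684792, plus strand): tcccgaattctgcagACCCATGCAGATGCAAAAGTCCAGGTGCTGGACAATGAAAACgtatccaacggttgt
The exon is 42 nt long, a multiple of a codon. The 9 transcripts counted as containing it had 7.46 TPM in replicate 1 and 4.87 TPM in replicate 2. The 7 counted as skipping it had 7.21 and 7.78 TPM. Neither set holds the leading transcript Pax6-210, at 8.38 and 9.24 TPM. Pax6-222, with the exon, and Pax6-221, without it, are counted although annotated as retained introns. Inclusion, taken over these 2 sets only, was 50.9% in replicate 1 and 38.5% in replicate 2 (mean 44.7 ± 8.74%, SD, n = 2). Counts gave 49.6% and 37.9%. These shares compare whole transcripts and do not isolate the exon. On counts scaled to the depth of replicate 2, the transcripts with the exon had 1994 in replicate 1 and 1892 in replicate 2, and those without it had 2026 and 3107, which is 1.53-fold higher in replicate 2. Within Pax6, the form with the exon, Pax6-206, was 21.7% of the TPM in replicate 1, against 10.8% in replicate 2, and Pax6-207, which starts and ends at the same bases and skips it, held 11.1% and 12.2%.

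**Figure D2:**
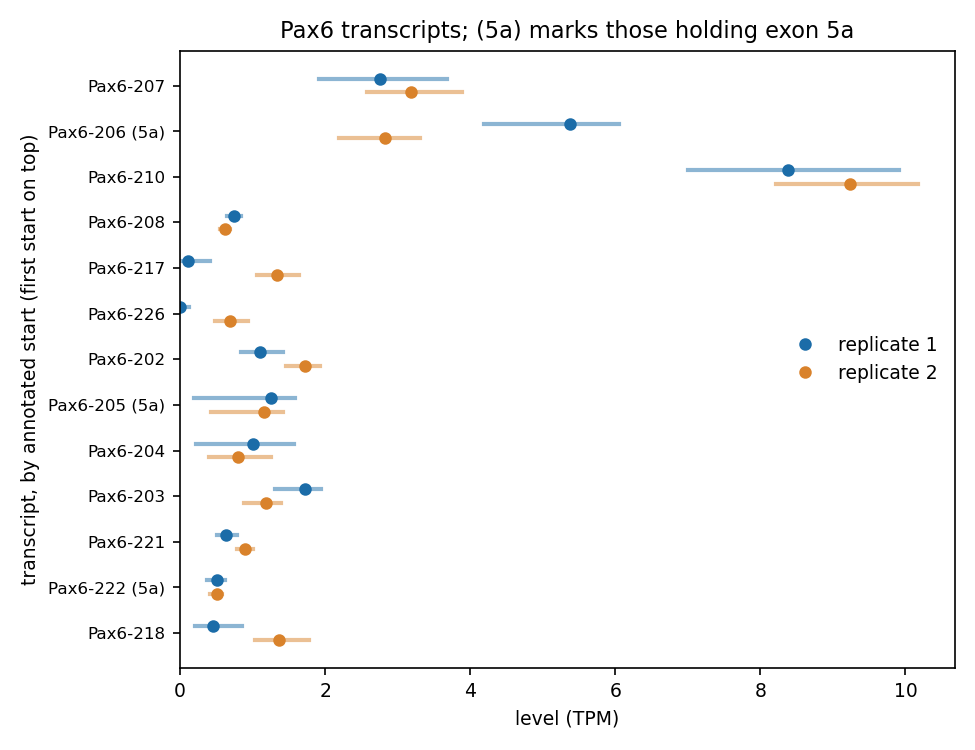
Level in TPM of the higher Pax6 transcripts, ordered by annotated start, with 1 point per library and the deposited interval as a line; (5a) marks transcripts with exon 5a. Pax6-210 leads in both libraries at 8.38 and 9.24 TPM, and Pax6-206 stands at 5.38 TPM in replicate 1 and 2.83 TPM in replicate 2.

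Pax8, Pax5 and Pax2 together had 19.27 TPM in replicate 1 and 9.67 TPM in replicate 2, or 40.1% and 25.4% of the TPM of all 6 genes. Pax8 (ENSMUSG00000026976.11, chromosome 2, 24420560 to 24475599, minus strand), best known as a regulator of thyroid development, led this subfamily. It had 1390 counts and 12.38 TPM in replicate 1 and 1475 counts and 6.12 TPM in replicate 2 (mean 9.25 ± 4.43 TPM). Pax8 was 4.91 and 3.97 times the level of Pax2 in replicates 1 and 2 (mean log2 ratio 2.14 ± 0.22). Pax5 was 0.353 and 0.328 times the level of Pax8 (mean log2 ratio -1.55 ± 0.07).

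The Pax8 start is shown because nearly all Pax8 counts fell to transcripts that begin there. Capitals mark CCAAT, at position -57.
Pax8 start, chr2:24475550-24475849 minus strand: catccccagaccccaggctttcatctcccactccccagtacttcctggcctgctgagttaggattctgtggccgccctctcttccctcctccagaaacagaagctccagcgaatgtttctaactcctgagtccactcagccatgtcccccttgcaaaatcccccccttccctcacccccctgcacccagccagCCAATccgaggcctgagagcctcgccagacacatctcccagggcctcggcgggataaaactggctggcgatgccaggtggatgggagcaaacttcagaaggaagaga
Transcripts starting within 100 nt of it held 91.7% of Pax8 counts in replicate 1 and 93.5% in replicate 2, and 72.8% and 64.0% of its TPM. The full-length coding transcript Pax8-201 led in both libraries, with 44.1% and 54.1% of TPM and 72.3% and 84.0% of counts. The short forms were uneven. Pax8-207 had 71.24 counts in replicate 1 and 0 in replicate 2, Pax8-208 had 28.5% and 5.28% of TPM, and Pax8-205 had 0 in replicate 1 and 27.4% of TPM in replicate 2. That last share rested on 14 counts, 0.949% of Pax8 counts, over an effective length of 50.5 nt.

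Pax5 (ENSMUSG00000014030.11, chromosome 4, 44524757 to 44710487, minus strand) encodes the factor that commits lymphocyte precursors to the B cell fate and acts with Pax2 at the midbrain-hindbrain boundary. It had 374 counts and 4.37 TPM in replicate 1 and 384 counts and 2.01 TPM in replicate 2 (mean 3.19 ± 1.67 TPM). Its TPM lay below the deposited interval in each library, 4.65 to 7.33 in replicate 1 and 2.13 to 3.14 in replicate 2, and the deposited posterior mean was higher, at 5.85 and 2.60 TPM. Of its 20 transcripts 15 were at 0 in both libraries, and the leader changed. Pax5-208, a short coding form of 5 exons that starts inside the gene at 44704006, had 48.3% of TPM in replicate 1 and 38.2% in replicate 2. Pax5-201, counted over 1616 nt (8004 nt in the later annotation), had 26.6% and 61.0%, and Pax5-202 had 22.5% and 0. The 8 genes of the B lymphocyte list were all under 1 TPM, while 54.6% of all protein-coding genes reached it in both libraries. The list had a summed TPM of 0.33 in replicate 1 and 0.87 in replicate 2, of which Cd22 held 0.02 and 0.62. Cd22 too lay below its deposited interval, 0.437 to 2.45 in replicate 1 and 0.696 to 1.64 in replicate 2. Its deposited posterior mean was 1.38 and 1.14 TPM.

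Pax2 (ENSMUSG00000004231.11, chromosome 19, 44756045 to 44837871, plus strand), needed for the kidney and inner ear and made by inhibitory interneuron precursors of the cerebellum, had 777 counts and 2.52 TPM in replicate 1 and 987 counts and 1.54 TPM in replicate 2 (mean 2.03 ± 0.693 TPM). Pax5 was 1.73 and 1.31 times its level. Pax2 was the least divided of these 3 genes among its transcripts: Pax2-203 made up 81.7% of its TPM in replicate 1 and 86.9% in replicate 2, and Pax2-201 held 15.1% and 11.0%. Among their differences is an exon of 69 nt, present in Pax2-201 only. It is shown in capitals with the 15 bases of the spliced transcript Pax2-201 on each side, which belong to the neighbouring exons.
Pax2 alternative exon (capitals at chr19:44796628-44796696, plus strand): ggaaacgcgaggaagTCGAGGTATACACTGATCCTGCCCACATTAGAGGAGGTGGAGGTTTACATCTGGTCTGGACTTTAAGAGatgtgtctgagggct
Its inclusion was taken as the TPM of Pax2-201 over the sum of Pax2-201 and Pax2-203. It was 15.6% in replicate 1 and 11.3% in replicate 2 (mean 13.4 ± 3.10%). Pax2-201 and Pax2-203 also differ in annotated start (44757394 and 44756045) and in length (3095 and 4358 nt). The share therefore compares whole transcripts and does not isolate the exon. No gene of the kidney, thyroid and inner ear list reached 1 TPM in both libraries (0 of 10, against 54.6% of all protein-coding genes). The sum of that list was 1.45 TPM in replicate 1 and 1.28 TPM in replicate 2, with Umod at 0 in both.

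Pax3 and Pax7 together had 4.07 TPM in replicate 1 and 2.22 TPM in replicate 2. Pax3 (ENSMUSG00000004872.11, chromosome 1, 78101267 to 78197134, minus strand), a regulator of neural crest and muscle precursors, had 817 counts and 3.33 TPM in replicate 1 and 789 counts and 1.53 TPM in replicate 2 (mean 2.43 ± 1.27 TPM). Pax7 (ENSMUSG00000028736.9, chromosome 4, 139737062 to 139833528, minus strand), which marks muscle stem cells and dorsal midbrain neurons, had 292 counts and 0.74 TPM in replicate 1 and 547 counts and 0.69 TPM in replicate 2. Pax3 was 4.5 times the level of Pax7 in replicate 1 and 2.22 times in replicate 2 (mean log2 ratio 1.66 ± 0.72). The gap was wider in replicate 1.

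Pax3 had 3 transcripts, all above 10% of its TPM, and the order of their point estimates changed. In replicate 2 the deposited intervals of Pax3-201 (0.416 to 0.620 TPM) and Pax3-202 (0.462 to 0.649 TPM) overlapped, so the leader there was not resolved. Pax3-201 had 44.0% in replicate 1 and 34.2% in replicate 2, Pax3-202 had 20.98% and 36.3%, and the non-coding Pax3-203 had 35.04% and 29.5%. Pax7 was mostly Pax7-201, with 83.0% of TPM in replicate 1 and 81.9% in replicate 2, and the rest was Pax7-202 at 17.0% and 18.1%. Pax7-202 rested on 14.52 counts in replicate 1 and 29.36 in replicate 2. Its deposited interval in replicate 1 ran from 1.28e-05 to 0.307 TPM, so how steady the Pax7 shares are was not resolved.

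**Figure D3:**
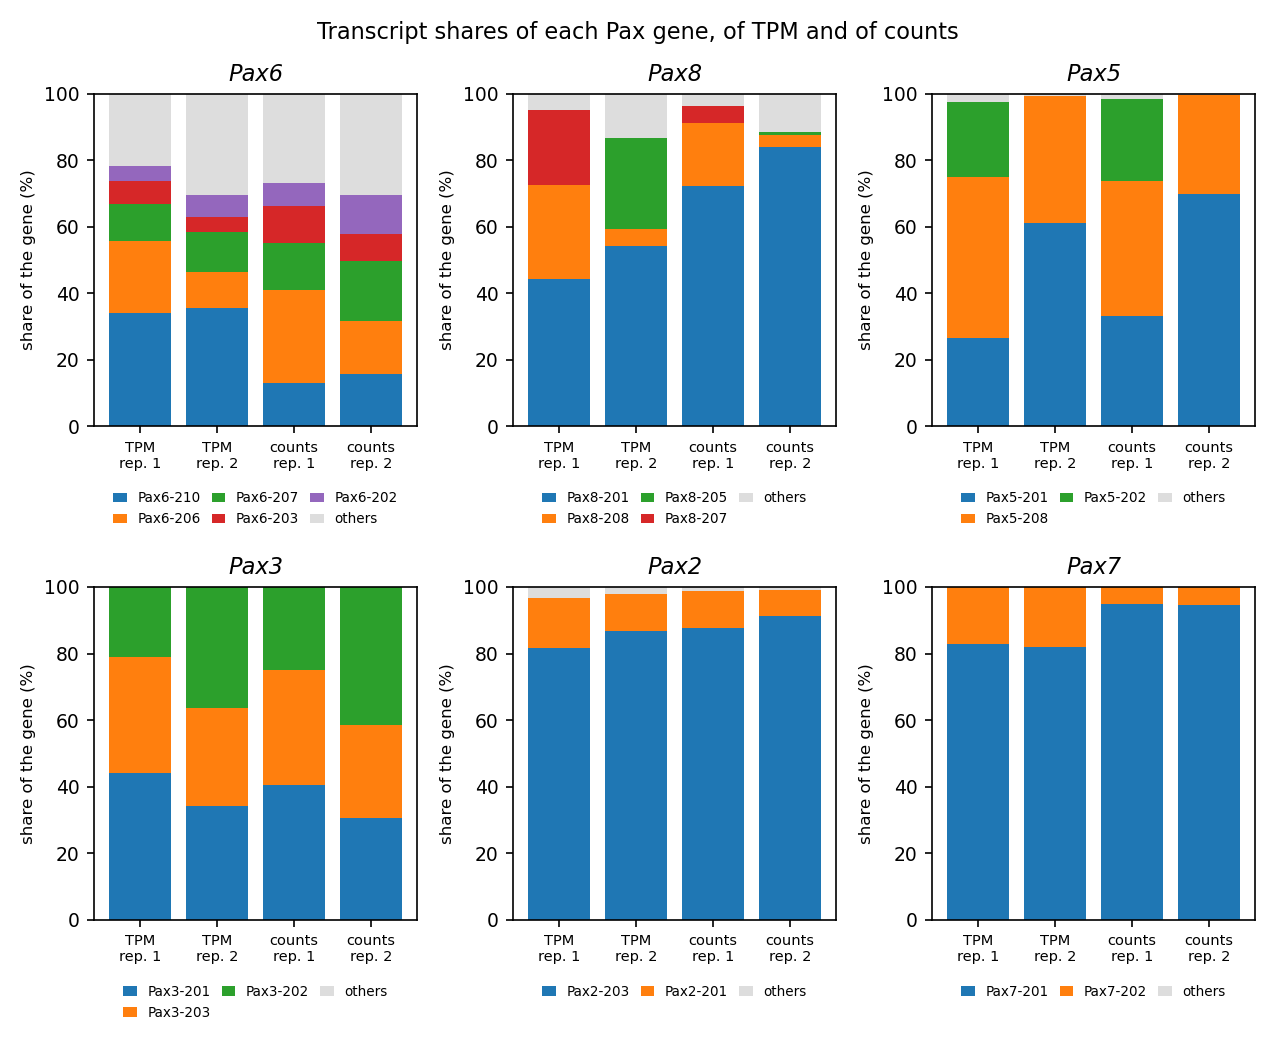
Share (in %) of each Pax gene held by its transcripts, by TPM (left pair of bars) and by counts (right pair), with 1 bar per library. Pax2-203 and Pax7-201 hold most of their genes in both libraries, and the leading transcript of Pax5 differs between libraries. For Pax3 the highest point estimate also differs, but the leader in replicate 2 was not resolved. By counts the highest Pax6 transcript is Pax6-206 in replicate 1 and Pax6-207 in replicate 2.

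In the skeletal muscle and neural crest list 1 gene, Acta1 (skeletal muscle actin), stood apart, at 36.03 TPM in replicate 1 and 3.98 TPM in replicate 2. The list summed to 50.2 and 13.98 TPM with it and to 14.17 and 10 TPM without it. Of its 12 genes 4 reached 1 TPM in both libraries, against 54.6% of all protein-coding genes. After Acta1 the highest were Sox10 at 9.44 and 7.23 TPM, Foxd3 at 2.26 and 1.01 TPM, and Mitf at 1.57 and 1.12 TPM. Myf5, Mymk and Tyr were at 0 in both libraries, while Myod1 had 0.09 and 0.19 TPM and Myog 0.01 and 0.03 TPM, chosen after their values were seen. The part of this list in the Pax3 and Pax7 values was not tested.

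The remaining family members Pax1, Pax4 and Pax9, known from the skeleton, pancreas and pharynx, had 0 counts in both libraries. A count of 0 allows up to 3 counts. For Pax1 that is 0.0234 TPM in replicate 1 and 0.0115 in replicate 2, for Pax4 0.0456 and 0.0221, and for Pax9 0.0113 and 0.00555. The deposited upper bounds were higher, up to 0.189 TPM for Pax4 in replicate 1.

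Between the libraries, on counts scaled by the trimmed mean of M values (TMM) with a prior count of 2, Pax3, Pax5, Pax8 and Pax2 were higher in replicate 1, and Pax7 and Pax6 were lower. Pax3 was 1.47-fold higher in replicate 1 (log2 ratio 0.56, with a counting interval from 0.42 to 0.70), Pax5 was 1.38-fold higher (0.47, from 0.26 to 0.68), and Pax8 was 1.34-fold higher (0.42, from 0.32 to 0.53). Pax2 was 1.12-fold higher (0.16, from 0.03 to 0.30). Pax6 was at a log2 ratio of -0.40 (from -0.46 to -0.34), which is 1.32-fold higher in replicate 2, and Pax7 at -0.39 (from -0.61 to -0.19). The counting intervals of these ratios left out 0 for all 6 genes, but with scaling by spike-ins Pax2 was at 0.06 (from -0.07 to 0.20), an interval that holds 0; those of the other 5 genes did not. Ratios of such a size were not rare, however: 0 of the 6 genes passed 1.5-fold in either direction, against 24.6% of 17629 mouse genes averaging 10 counts or more (9.88% higher in replicate 1 and 14.7% higher in replicate 2). Of 12366 protein-coding genes averaging 200 counts or more, 7.88% passed it, 3.31% higher in replicate 1 and 4.57% higher in replicate 2. Among these coding genes 8.77% lay as far from 0 as Pax3, 12.5% as far as Pax5 and 15.1% as far as Pax8. For Pax6 that share was 16.9%, for Pax7 17.2% and for Pax2 49.4%.

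**Figure D4:**
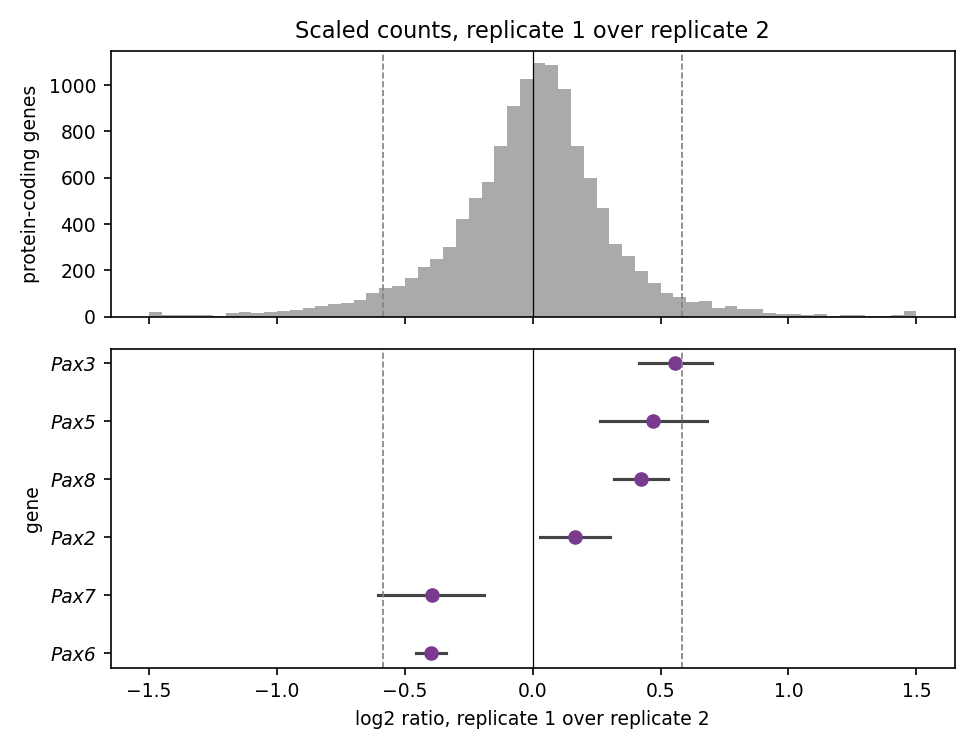
Log2 ratio of replicate 1 over replicate 2 for the 6 Pax genes, with counting intervals, below a histogram of protein-coding genes averaging 200 counts or more, in which values past 1.5 either way are drawn at 1.5; dashed lines mark 1.5-fold. The Pax ratios span -0.40 to 0.56, while the 5th and 95th percentiles of the coding genes are -0.56 and 0.48.

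Pax6 stood farther above Pax2 and Pax3 in replicate 2. Pax6 was 9.82 and 17.0 times the level of Pax2 (mean log2 ratio 3.69 ± 0.56) and 7.43 and 17.1 times the level of Pax3 (3.49 ± 0.85) in replicates 1 and 2. Part of that difference lay in the length correction, as the deposited effective length of Pax6 was 1763.66 nt in replicate 1 and 1553.87 nt in replicate 2. With a length averaged over both libraries the folds were 10.6 and 15.7 over Pax2 and 8.07 and 15.7 over Pax3.

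Genes that overlap a Pax gene on the opposite strand had few counts. There were 7 of them, and 3 had none in either library, namely 1700039E22Rik and Gm20395 at Pax2 and Gm13415 at Pax8. Pax6os1 at Pax6 had 8 counts in replicate 1 and 5 in replicate 2. The largest share was at Pax5, where Gm12462 had 34 and 82 counts, 4930517J16Rik 3 and 11, and 5730488B01Rik 3 and 35; whether the deposited counts used strand is not given in the sources used here, so Pax5 is the most uncertain of the 6 genes in that respect.

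Genes of the pathways and cell types in which Pax genes work were described by 12 lists, and En2, Gbx2 and Six6 each belong to 2 of them and Six3 to 3. The lists were chosen with earlier results of these data known, so their counts beside all protein-coding genes are no independent test. In the inhibitory interneuron list 12 of 12 genes reached 1 TPM in both libraries, with a median level of 7.96 TPM. Of all protein-coding genes 54.6% reached it. Gad1, which makes the transmitter GABA, had 31.59 TPM in replicate 1 and 20.29 TPM in replicate 2, and Ptf1a, a factor that specifies these neurons, had 1.43 and 1.63 TPM. In the granule cell and rhombic lip list 12 of 13 did so, with a median of 10.4 TPM, from Zic1 at 78.5 and 65.34 TPM to Tbr1 at 0.31 and 0.11 TPM. In the dorsal progenitor list 10 of 12 did so, with a median of 6.59 TPM. Its highest genes were Vim, at 293.16 TPM in replicate 1 and 184.37 in replicate 2, and Fabp7, at 209.29 and 135.56. Its lowest were Msx2, at 1.23 and 0.6, and Olig3, at 0.38 and 0. General and dorsal progenitor genes were not separated, so this median does not describe dorsal identity. The medians of these 3 lists lay above that of all protein-coding genes, 2.07 TPM.

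Lists nearer to the Pax genes themselves were more mixed. In the midbrain-hindbrain boundary list 6 of 10 genes were detected (median 2.55 TPM), near the 54.6% of all protein-coding genes. Otx2 had 7.71 and 9.11 TPM and En2 9.78 and 6.47 TPM, while Wnt1 had 0 in replicate 1 and 0.01 TPM in replicate 2. In the network of sine oculis homeobox, Eya and Dach factors, which act together in eye, ear and muscle, 6 of 12 were detected. That count too was near the 54.6% (median 1.5 TPM). Dach1 had 7.44 and 4.56 TPM, Eya3 4.58 and 3.59, and Six6, a factor of the eye field, 0.06 and 0. The eye and pancreas list had 0 of 10 detected and a sum of 2.46 TPM in replicate 1 and 1.02 TPM in replicate 2. Its gene Ins2 had 0 counts in both libraries, but a deposited posterior mean of 8.61 and 2.69 TPM. Pax6 is known as a regulator of both organs.

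**Figure D5:**
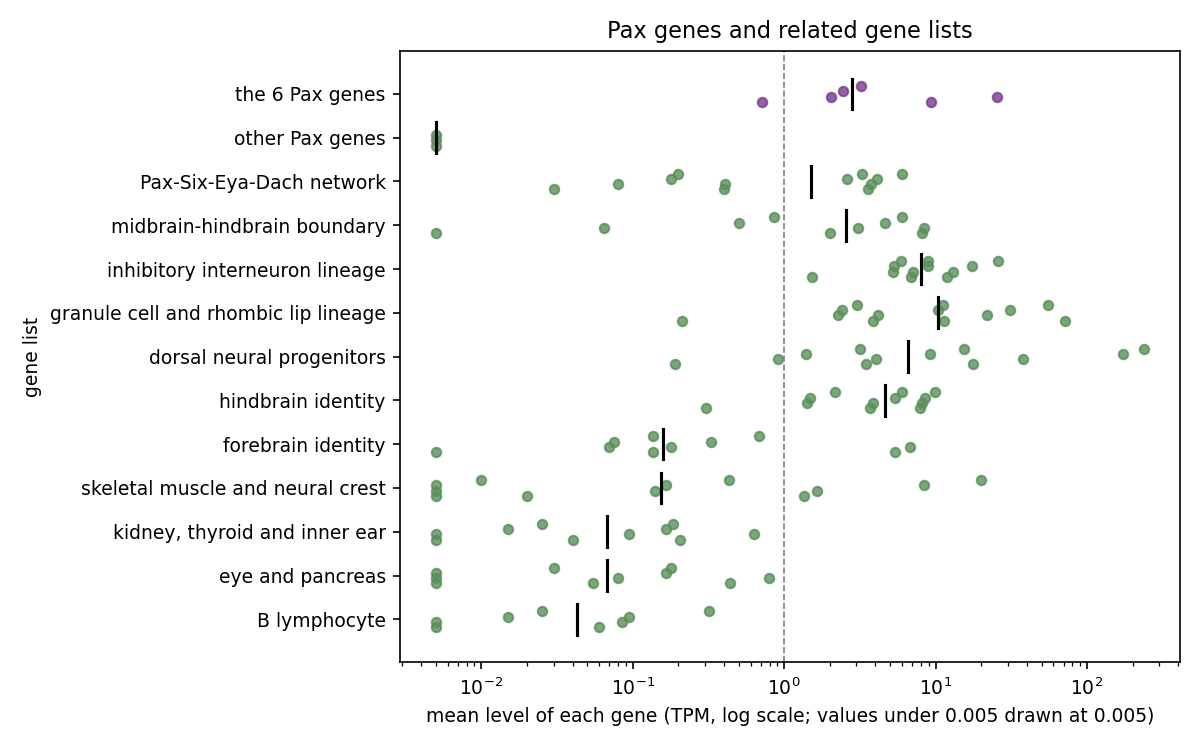
Mean TPM of each gene of the 12 lists, with 1 point per gene and a bar at each list's median, below the 6 Pax genes, on a log axis where values under 0.005 TPM are drawn at 0.005. The interneuron, granule cell and progenitor medians lie at 6.59 to 10.4 TPM, and the medians of the 4 lists for tissues outside the brain lie below 1 TPM.

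Among 119 list genes, the one whose pattern over the 2 libraries lay nearest to Pax6 was Meis1, at 24.86 TPM in replicate 1 and 19.01 TPM in replicate 2 (Euclidean distance 0.46 on log2(TPM + 0.1)). Gad2, which also makes GABA, was nearest to Pax8, at 11.19 and 6.67 TPM (distance 0.19). For Pax5 it was Sox9, at 4.66 and 2.24 TPM (0.17), and for Pax7 it was Dlx1, at 0.70 and 0.66 TPM (0.09). Pax2 lay nearest to Hoxa3, at 2.42 and 1.88 TPM (0.28), and Pax3 to Fgf18, at 2.83 and 1.2 TPM (0.40). With 2 libraries such nearness reflects level and library ratio only.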

How the data were processed

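Gene and transcript tables of the 2 libraries were used. Per the deposited file notes they come from alignments to the transcriptome on build mm10 with GENCODE release M4; which aligner and quantifier were run, and whether counting used strand, is not given in the sources used here. The authors deposited, per the file headers, expected counts, TPM and FPKM values, the percent of a gene's TPM held by each transcript, posterior means and interval bounds; FPKM values were not used. Symbols and coordinates came from GENCODE release M21, which matched 42462 of 43346 mouse genes; 61 of 62 Pax transcripts had the same length in both releases, Pax5-201 being the exception. All 6 genes had whole expected counts. Library ratios used rounded counts, TMM scaling over mouse genes in edgeR 4.0.16 (R 4.3.3) and a prior count of 2, tested on simulated data; DESeq2 1.42.0 gave an alternative scaling. Levels are as deposited, with mean and SD of 2 libraries. Named are all Pax genes, up to 4 of the highest and 2 of the lowest genes of each list, nearest genes, opposite-strand partners and transcripts of at least 10% in either library. The members and lists were chosen with earlier results of these data known. Promoter sequences are from RefSeq and exon sequences from GENCODE M21 transcripts.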

Additional observations from a re-analysis of the deposited data

How the results depend on the processing

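Of 132 recomputed values none changed sign and 16 moved past 1 SD of the libraries, or past 1.5 times for a count of genes. The cause was not tested unless given. Only log2 ratios could change sign, since levels, shares and counts are never negative. Apart from counts of genes, leaving out a library could not move a value past 1 SD. Each of 2 values always lies within 1 SD of their mean, so those rows do not measure stability. TPM over protein-coding genes only removes other RNA from the fixed sum. It gave means (± SD) of 8.49 ± 0.694 for Pax2, 9.91 ± 2.77 for Pax3 and 13.0 ± 3.63 for Pax5. For Pax6 it gave 112 ± 33.6, for Pax7 3.11 ± 0.67 and for Pax8 38.0 ± 8.72. A minimum of 2 TPM left 3 of 6 genes detected. Spike-in scaling shifted the median log2 ratio by -0.10 and put Pax6 at -0.50 and Pax2 at 0.06, with an interval that holds 0. Posterior means put the log2 ratio of Pax5 over Pax2 at 0.98 and of Pax5 over Pax8 at -1.20, and Pax7-201 at 80.3%. Shares of counts, which are not divided by length, were 89.4% for Pax2-203, 14.2% for Pax6-210, 94.8% for Pax7-201, 78.1% for Pax8-201 and, chosen after seeing the data, 9.64% for the Pax2 alternative exon. DESeq2 size factors, total counts, a prior count of 0.5, a minimum of 0.5 TPM, a pseudocount of 0.1 TPM and, added after seeing the data, a common effective length moved none of the values they were applied to. Leaving out each library gave the 2 library values in the report: levels of 1.54 to 2.52 TPM for Pax2, 1.53 to 3.33 for Pax3, 2.01 to 4.37 for Pax5, 24.75 to 26.13 for Pax6, 0.69 to 0.74 for Pax7 and 6.12 to 12.38 for Pax8. No paired analysis was possible because the series has 1 group. Depth limits Pax5 (374 and 384 counts) and Pax7 (292 and 547) most.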
